A study of Mus musculus with 4 samples.

Results

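Lyn and its relatives among the Src family of tyrosine kinases were followed in RNA sequencing profiles of mouse subcutaneous white fat. The genes were taken from the table by symbol and comprised the Src family kinases Lyn, Fgr, Lck, Blk, Fyn, Src and Yes1, the kinase Csk and the adaptor Pag1. Each of the 9 symbols had 1 row among the 21899 rows of the protein-coding table, and all 9 passed the filter of a mean of at least 1 FPKM, as 12345 rows did. FPKM counts sequenced fragments per kilobase of transcript, scaled to the mapped fragments of the library.

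The libraries came from 2 groups, labelled miR-203 inhibitor and negative control, with 2 libraries a group and the RNA of 3 animals pooled in each library. The series title concerns browning of subcutaneous fat and glucose tolerance and names a network of cAMP, miR-203 and IFNγ. The sources used here do not give the make-up of the negative control, nor strain, sex, age, dose, route or duration. Spread between libraries is spread between pools, of which there were only 2 a group.

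Src family kinases sit on the inner face of the cell membrane and are the first enzymes to act when many receptors without kinase activity of their own are engaged. In the closed state a phosphorylated tyrosine near the C-terminus binds the kinase's own SH2 domain. Csk adds that phosphate, Pag1 brings Csk to the membrane, and phosphatases such as CD45 remove it. Lyn and Fgr are typical of myeloid cells, with Lyn also in B cells, Lck is typical of T cells and Blk of B cells, whereas Fyn, Src and Yes1 are made by many cell types, fat and stromal cells included. Lyn both starts signals, by phosphorylating activating receptor motifs, and limits them, by phosphorylating inhibitory receptor motifs that recruit phosphatases.

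Because the treatment was directed at miR-203, its mature strands are shown first, with the seed, bases 2 to 8, in capitals. The labels do not say which strand the inhibitor was designed against. The sequences are those of RefSeq on GRCm38.p6, where both strands lie on chromosome 12, plus strand (chr12:112130927-112130948 for the 3p strand and chr12:112130889-112130910 for the 5p strand).
mmu-miR-203-3p: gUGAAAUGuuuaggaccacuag
mmu-miR-203-5p: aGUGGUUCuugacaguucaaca

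For every gene, the longest 3′ untranslated region in GENCODE M21 was read on the transcript strand for matches to the 3p seed, namely CATTTCA (bases 2 to 8), the same with a following A, or ATTTCAA (bases 2 to 7 and a following A). Lyn had 4 matches in its 1669 bases, Src had 2, Fgr, Fyn and Pag1 had 1 each, and Lck, Blk, Yes1 and Csk had 0. The windows around the Lyn and Src matches are printed because these were the members with an 8-base match, with the matching bases in capitals, in order from the stop codon. On GRCm38 the Lyn matches lie on chromosome 4, plus strand, at chr4:3790640-3790646, chr4:3791213-3791219, chr4:3791402-3791409 and chr4:3791521-3791528. The Src matches lie on chromosome 2, plus strand, at chr2:157470933-157470940 and chr2:157471422-157471428.
Lyn match 1: tggtccaggtATTTCAAttatgggattc
Lyn match 2: acaactggagCATTTCAggttggagggc
Lyn match 3: aaaatagtatCATTTCAAaatattctaa
Lyn match 4: tccctactctCATTTCAAactcacctgc
Src match 1: ttgtcctgatCATTTCAAcacctggccc
Src match 2: cagacacgacCATTTCAcccattgcccc

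At least 1 match to the 3p seed was present in 24.5% of the 12155 tested genes with a 3′ untranslated region, so its presence in 5 of the 9 members is a description of the members and no test. At least 4 matches were found in 103 of the tested genes, or 0.847%, and in 3 of the 919 genes whose region was within 10% of the length of that of Lyn. At least 2 of the 8-base matches, as in Lyn, were present in 54 genes, or 0.444%. For the 5p strand, a match to GAACCAC or its A-flanked forms was found among the members in Fyn, which had 1, and in 17.5% of the tested genes. A match is a run of letters and was not tested as a binding site.

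**Figure D1:**
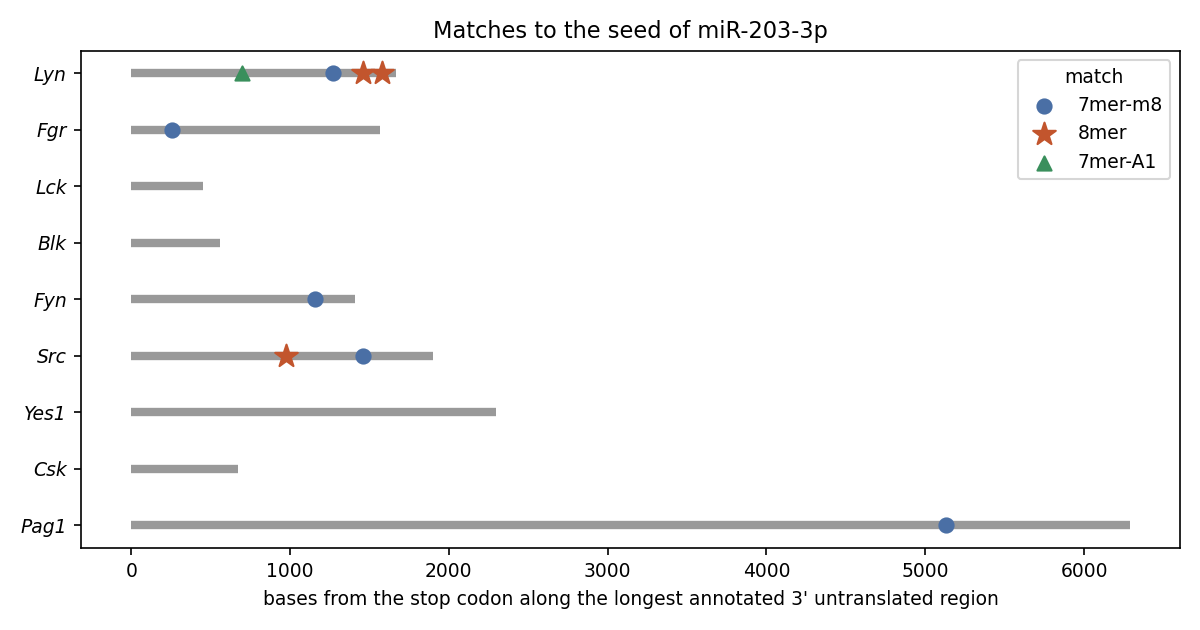
Matches to the seed of miR-203-3p along the longest annotated 3′ untranslated region (grey bar) of each of the 9 members, in bases from the stop codon; stars are 8-base matches, circles are matches to bases 2 to 8 and triangles are matches to bases 2 to 7 with a following A. Lyn carries 4 matches, 2 of them stars, and Lck, Blk, Yes1 and Csk carry 0.

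Over all genes, inhibitor and control were compared with limma on log2(FPKM + 1), in a two-sided test whose p-values were adjusted over the 12345 rows by the Benjamini-Hochberg method. An adjusted p under 0.05 counted as a call. The fit called 397 genes higher in the inhibitor libraries, which is 3.22%, and 33 lower, which is 0.267%. Together these were 3.48% of the tested rows, and the median log2 fold change over all of them was 0.07. Of 9 adipocyte markers all were measured and 0 were called. At an unadjusted p under 0.05 in limma 7 were lower, beside 5.95% of all tested genes. Their summed level was 26177 and 27433 FPKM in the controls against 22628 and 21200 with the inhibitor. Among them Adipoq, the gene of adiponectin, had 1255 and 1303 against 1095 and 997 FPKM. The 13 mitochondrial genes took 14.4% and 17.5% of all FPKM in the controls against 10.2% and 12.1% with the inhibitor, and with equal totals over the remaining genes the log2 fold change of Lyn was 0.65 (limma, adjusted p = 0.0325), in a range of 0.0154 to 0.250 over all alternatives. Control 2 stood apart from the other 3 libraries in its low values of T cell and most B cell markers, given beside Lck and Blk. The summed natural killer cell markers were not lowest there, at 72.8 FPKM in control 1 and 83.1 in control 2. A fold change is on the log2(FPKM + 1) scale, which understates the change of low genes.

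Lyn rose with the inhibitor and was the 1 member of 9 that was called, with 0 called lower, beside 3.22% and 0.267% of all genes. It had 29.5 and 29.0 FPKM in control 1 and control 2, and 47.1 and 49.6 FPKM in inhibitor 1 and inhibitor 2. Both inhibitor libraries were above both controls, and the libraries within each group lay close together. The mean went from 29.3 ± 0.370 to 48.4 ± 1.76 FPKM (SD, n = 2 pools), a log2 fold change of 0.71 with a 95% interval of 0.48 to 0.93 (limma, adjusted p = 0.0222), or 1.63-fold. At an unadjusted p under 0.05 the count was 2 of 9 members, Lyn and Fgr, both higher, beside 19.3% of all tested genes (13.4% higher and 5.95% lower), so this count is near the background. The call was lost with no filter on low values (adjusted p = 0.0510), with no trend in the variance (0.0661), without inhibitor 1 (0.160) and without inhibitor 2 (0.250), while the log2 fold change lay between 0.58 and 0.74 over the 12 alternatives, whose adjusted p ran from 0.0154 to 0.250. With only 2 libraries a group, an exact permutation test of a single gene cannot give a two-sided p below 0.333.

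Among the 103 tested genes with at least 4 matches to the miR-203-3p seed, Lyn was the 1 called higher and 0 were called lower, beside 3.22% and 0.267% of all genes. Their median log2 fold change was 0.12, against 0.07 for all rows tested. A positive value was found in 76 of the 103, and also in most of all tested rows, whose median is above 0. The 54 genes with at least 2 of the 8-base matches had a median of 0.06, and again Lyn was the 1 called higher. The limits of 4 matches and 2 matches were taken from Lyn itself, so these counts describe its neighbours and test nothing. Src, the other member with an 8-base match, was not called.

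Lyn lies on chromosome 4 of GRCm38 at chr4:3678115-3813122, plus strand, with 2 protein-coding transcripts in GENCODE M21, so its protein isoforms could not be told apart from a gene-level value. Of the different 50-base runs in its transcripts, 13.4% also occur in the unprocessed pseudogene Gm11787, whereas the transcripts of Fgr, Lck, Blk, Fyn, Src and Csk shared 0 such runs with other genes. The sources used here do not say how fragments that match both Lyn and Gm11787 were assigned, so the level of Lyn carries that uncertainty. The 4 genes that overlap Lyn, all non-coding, lie on the opposite strand.

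**Figure D2:**
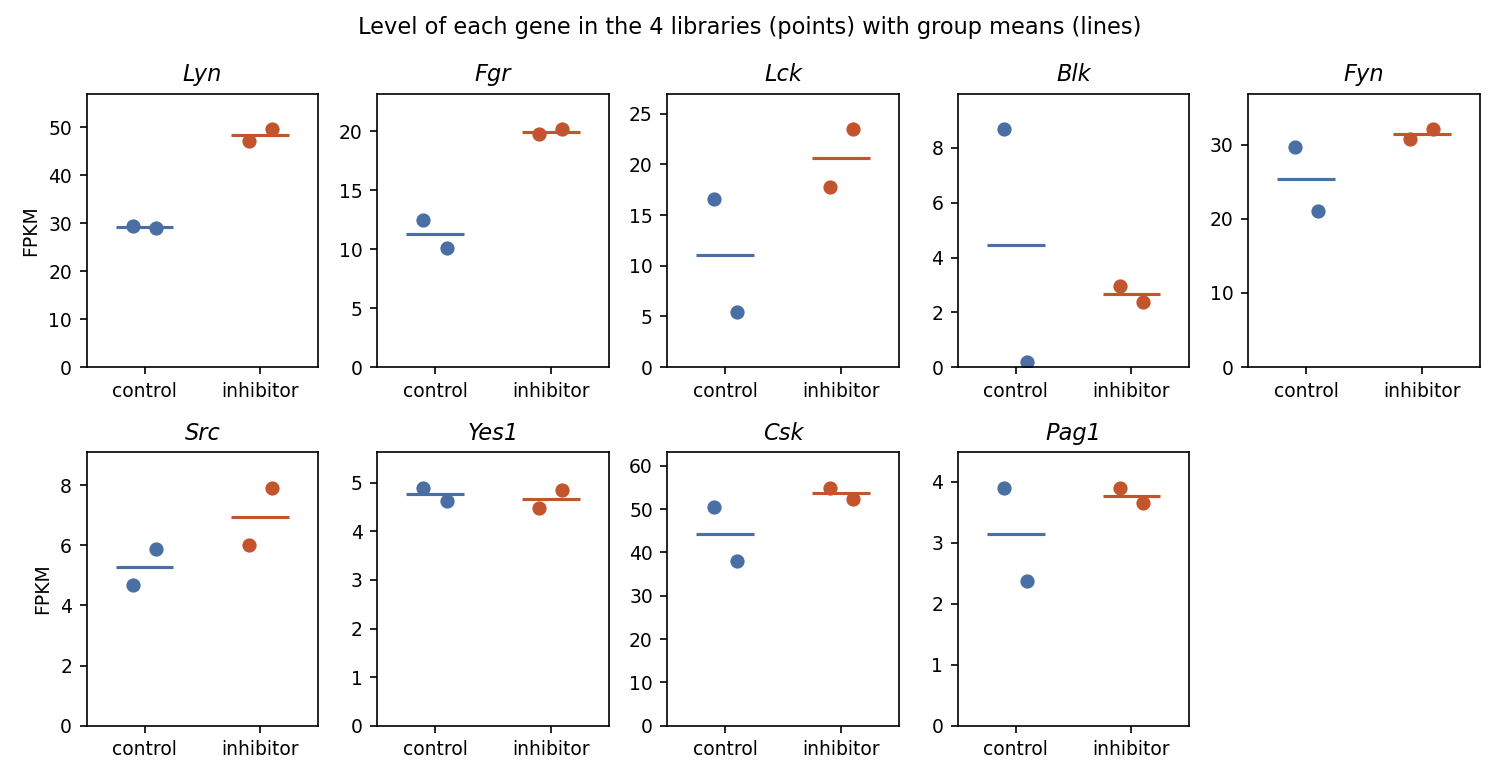
FPKM of the 9 members in each library, on a linear axis from 0 in each panel; points are libraries (blue controls, orange inhibitor), lines are the means of 2 pools. Lyn sits at 29.0 to 29.5 FPKM in the controls and at 47.1 to 49.6 FPKM with the inhibitor, and control 2 is the lowest library for Lyn, Fgr, Lck, Blk, Fyn, Csk and Pag1.

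Fgr, the other myeloid kinase among the members, had 12.5 and 10.1 FPKM in the control pools, against 19.8 and 20.2 FPKM with the inhibitor. The groups did not overlap, and the inhibitor libraries agreed within 0.395 FPKM. Its log2 fold change of 0.77, with a 95% interval of 0.43 to 1.12, narrowly missed the threshold (limma, adjusted p = 0.0526). It was called when rows needed a mean of at least 5 FPKM (0.0385). The other alternatives that kept all libraries gave no call, with adjusted p up to 0.113. The log2 fold change was 0.91 without control 1 and 0.64 without control 2. Its ratio to Lyn overlapped between the groups, at 0.423 and 0.350 FPKM of Fgr per FPKM of Lyn in the control pools, against 0.420 and 0.407 with the inhibitor. Fgr lies on the same chromosome, at chr4:132974095-133001910, plus strand.

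Markers of the cells that make these kinases moved in part. Of 16 macrophage markers, 2 rose (Cd68 and Fcgr1), Cd163 fell and 13 were not called, beside 3.22% of all genes called higher and 0.267% lower. Their summed level was 2304 and 2457 FPKM in the control pools, against 2756 and 2591 FPKM with the inhibitor. The defining macrophage genes Adgre1, at 34.5 and 47.1 against 56.6 and 58.4 FPKM, and Csf1r, at 99.3 and 101.5 against 96.9 and 80.9 FPKM, were not called. Per 100 FPKM of that marker sum Lyn had 1.28 and 1.18 FPKM in the control pools, against 1.71 and 1.91 FPKM with the inhibitor. That order depended on the markers used. Lyn per FPKM of Cd68, a lysosomal protein of macrophages, was 0.218 and 0.203 against 0.208 and 0.213, and per FPKM of Adgre1 it was 0.855 and 0.616 against 0.832 and 0.849. Both of these ratios overlapped between the groups. Cd68 and Adgre1 are among the 7 of the 16 markers with both inhibitor values above both controls. Another 4, Csf1r among them, had both inhibitor values below both controls, and Lyn was not set against those singly. Per 100 FPKM of the summed T cell markers Lyn had 17.9 and 86.3 against 42.8 and 29.9 FPKM. Per 100 FPKM of the B cell markers it had 7.72 and 37.1 against 21.2 and 22.9 FPKM. Both ratios overlapped because the sums were low in control 2. The T cell sum was 165.1 FPKM in control 1 and 33.6 in control 2, and the B cell sum 382.5 and 78.1. Lyn itself had 29.5 and 29.0 FPKM there, so these ratios cannot show whether Lyn moved with those cells. Of 12 neutrophil markers, 5 passed the filter and 0 were called. At an unadjusted p under 0.05 in limma 3 of the 5 were higher, beside 13.4% of all tested genes. The list had a summed level of 56.6 to 69.1 FPKM in the control pools, against 105.8 to 114.8 FPKM with the inhibitor. The 7 neutrophil markers that did not pass the filter, Ly6g among them, lay at or below 1.57 FPKM in every library, with no common direction. Of 10 natural killer cell markers, 4 rose, beside the same 3.22% of all genes, with a summed level of 72.8 and 83.1 FPKM in the control pools, against 202.8 and 218.1 with the inhibitor. In whole tissue, more cells of a type and more RNA of a gene in each cell cannot be told apart, and the part of these cell types in the kinase levels was not tested.

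**Figure D3:**
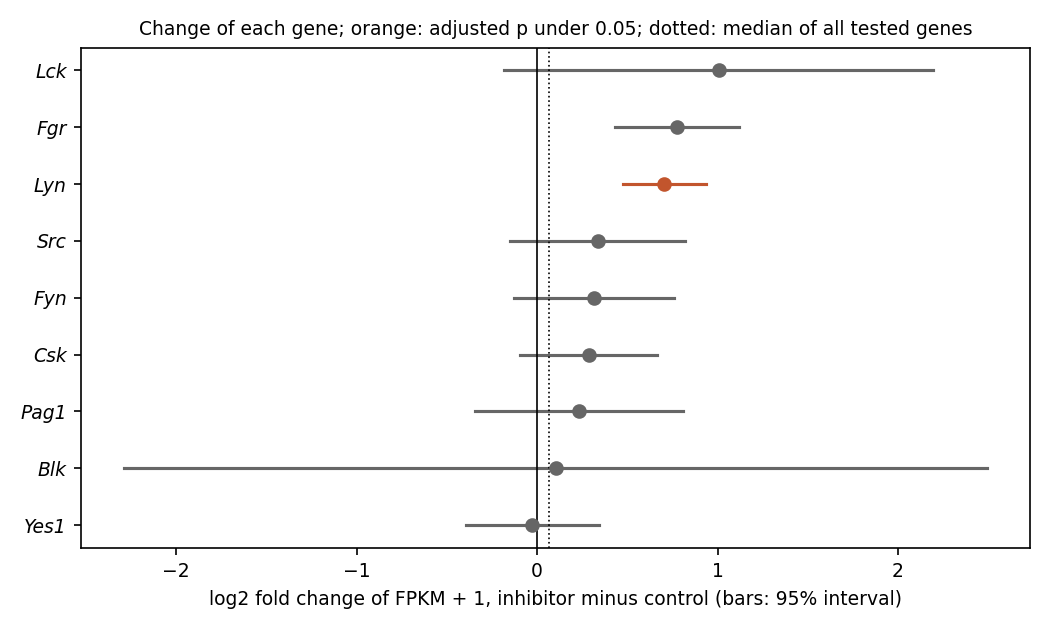
Log2 fold change of FPKM + 1, inhibitor minus control, for the 9 members, with 95% intervals from limma; orange marks an adjusted p under 0.05 and the dotted line is the median of all tested genes at 0.07. The intervals of Lyn and Fgr lie above 0, and those of Lck and Blk are the widest among the genes plotted.

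Lck, the kinase that starts signalling by the T cell receptor, had 16.6 FPKM in control 1 and 5.49 in control 2, against 17.8 and 23.5 FPKM in inhibitor 1 and inhibitor 2. The groups did not overlap, but control 1 lay within 1.21 FPKM of inhibitor 1, and the low control mean came from control 2. Its log2 fold change was 1.01, with a 95% interval of -0.18 to 2.19 (limma, adjusted p = 0.325). Without control 1 it was 1.72, and without control 2 it was 0.29. Each of these fits left only 1 control, so the spread came from the inhibitor libraries alone and no p-value is given. Over the alternatives that kept all libraries, adjusted p in limma ran from 0.274 to 0.457. The 16 T cell markers had a summed level of 165.1 FPKM in control 1, 33.6 in control 2, 110.0 in inhibitor 1 and 165.7 in inhibitor 2, and 0 of the 15 tested were called (limma, also 0 at an unadjusted p under 0.05). Per 100 FPKM of that sum, Lck had 10.03 and 16.3 FPKM in the control pools, against 16.2 and 14.2 FPKM with the inhibitor, which overlapped.

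Blk, a kinase downstream of the B cell receptor, had 8.68 FPKM in control 1 and 0.197 in control 2, against 2.97 and 2.36 FPKM with the inhibitor. The controls lay on either side of the inhibitor libraries, so that the mean FPKM was lower with the inhibitor while the mean log2 value was slightly higher. The log2 fold change was 0.10 with a 95% interval of -2.29 to 2.49 (limma, adjusted p = 0.963). Its direction depended on the control kept, at 1.61 without control 1 and -1.41 without control 2. Over the alternatives that kept all libraries and tested it, adjusted p in limma ran from 0.824 to 0.989. The 12 B cell markers had a summed level in the same order of libraries, at 382.5 FPKM in control 1 and 78.1 in control 2, against 222.3 and 216.9 with the inhibitor, and 0 were called (limma, also 0 at an unadjusted p under 0.05). Among them Cd79a, a signalling subunit of the B cell receptor, had 66.2 FPKM in control 1 and 0.636 in control 2, against 31.6 and 25.0 in the inhibitor libraries. Ccl21a, a chemokine of lymph node stroma, had 127.0 FPKM in control 1 and 0.237 in control 2, against 47.8 and 74.4 with the inhibitor. Of the other tested genes of that stroma, Glycam1 and Ccl19 were also lowest in control 2. Cxcl13 and Ackr4 were not, at 60.3 and 58.2 against 58.0 and 53.5 FPKM and at 3.77 and 5.36 against 3.15 and 3.41 FPKM. The part of lymph node tissue in the values of Lck and Blk was not tested. Blk lies at chr14:63372836-63417037 and Lck at chr4:129548344-129573641, both on the minus strand.

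**Figure D4:**
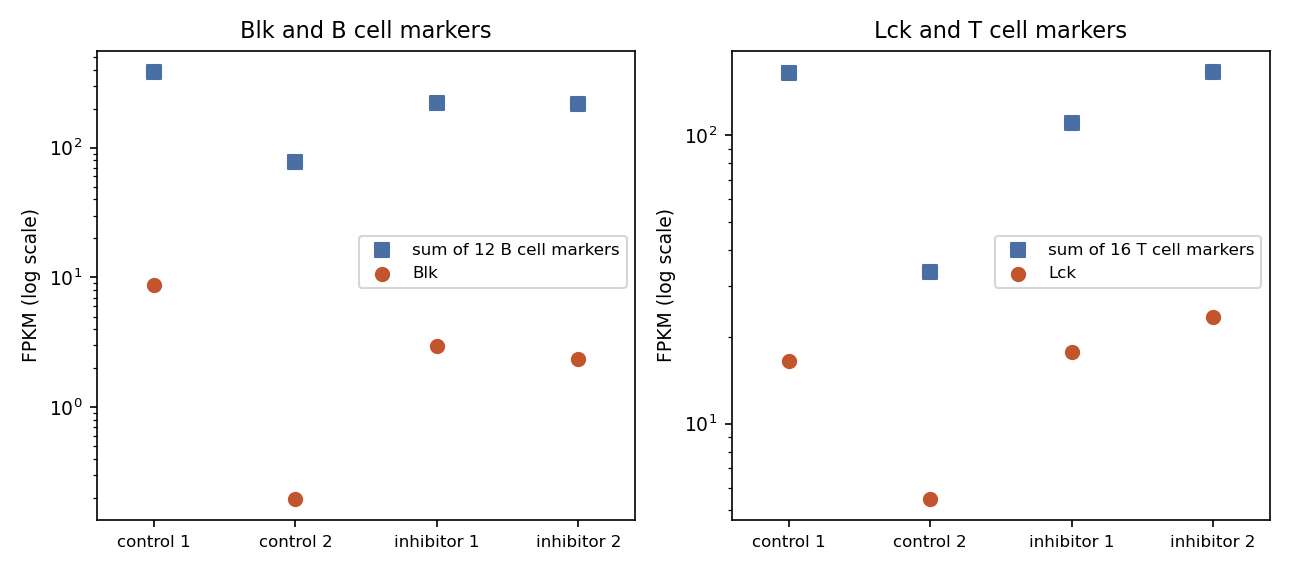
FPKM on a log axis of Blk with the sum of 12 B cell markers (left) and of Lck with the sum of 16 T cell markers (right) in each library; circles are the kinase and squares the marker sum. Control 2 is the lowest library in every series, with Blk at 0.197 FPKM and Lck at 5.49 FPKM.

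The broadly expressed kinases were not called. Fyn, which acts in T cells and also in fat and stromal cells, had 29.7 and 21.01 FPKM in the control pools, against 30.7 and 32.1 FPKM with the inhibitor. Its log2 fold change was 0.32 with a 95% interval of -0.13 to 0.76 (limma, adjusted p = 0.393), and 0.08 without control 2. Src, the founding member of the family, had 4.68 and 5.89 FPKM in the control pools, against 5.99 and 7.92 FPKM with the inhibitor. The gap between its groups, 0.103 FPKM, was smaller than the distance between replicates in either group, and the log2 fold change was 0.34 with a 95% interval of -0.15 to 0.82 (adjusted p = 0.403). Yes1, a close relative of Src and Fyn, had 4.90 and 4.63 FPKM in the control pools, against 4.48 and 4.84 FPKM with the inhibitor. These overlapped, at a log2 fold change of -0.03 with a 95% interval of -0.40 to 0.34 (adjusted p = 0.938), an interval that does not reach the change of Lyn. Fyn lies at chr10:39368855-39565381, Src at chr2:157418444-157471862 and Yes1 at chr5:32611171-32687057, all on the plus strand.

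The negative regulators of the family were not called either. Csk, the kinase that closes Src family enzymes, had 50.4 and 38.0 FPKM in the control pools, against 54.9 and 52.3 FPKM with the inhibitor. Control 2 was again the low library, and the log2 fold change of 0.29, with a 95% interval of -0.09 to 0.66 (limma, adjusted p = 0.372), was 0.09 without control 2. Pag1, the membrane anchor of Csk, had 3.90 and 2.37 FPKM in the control pools, against 3.90 and 3.65 FPKM with the inhibitor, which overlapped. Its log2 fold change was 0.23 with a 95% interval of -0.34 to 0.81 (adjusted p = 0.629), and -0.04 without control 2. Lyn per FPKM of Csk was 0.585 and 0.762 in the control pools, against 0.858 and 0.948 with the inhibitor, and Fgr per FPKM of Csk was 0.248 and 0.267 against 0.360 and 0.386. In both ratios the inhibitor libraries were higher than the controls. Fyn per FPKM of Csk, at 0.590 and 0.552 against 0.560 and 0.613, overlapped between the groups. Csk lies at chr9:57626646-57653631 and Pag1 at chr3:9687479-9833679, both on the minus strand.

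Of the 9 members, 6 had both inhibitor values above both control values and 3 overlapped, beside 33.1% of all tested genes separated in that direction and 19.1% in the other. Without regard to direction, 52.2% of all tested genes had groups that did not overlap. For Lck, Fyn and Csk the nearer control, control 1, lay close to the inhibitor libraries. The median log2 fold change over all tested genes was 0.07, so most of those were positive. Among the members 8 of 9 were positive, with a median of 0.32. Without control 2 the median was 0.09, and without control 1 it was 0.56, against 0.03 and 0.10 for all tested genes.

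FPKM is scaled to length, so levels can be set beside each other. In the controls the order by mean was Csk at 44.2, Lyn at 29.3, Fyn at 25.4, Fgr at 11.3, Lck at 11.02, Src at 5.29, Yes1 at 4.77, Blk at 4.44 and Pag1 at 3.14 FPKM. Lyn and Fyn overlapped there, as did each pair of neighbours from Fgr down to Pag1. In the inhibitor libraries the order was Csk at 53.6, Lyn at 48.4, Fyn at 31.4, Lck at 20.6, Fgr at 19.97, Src at 6.95, Yes1 at 4.66, Pag1 at 3.77 and Blk at 2.67 FPKM, and among neighbours only Lck and Fgr overlapped. The 7 Src family members summed to 106.6 and 76.4 FPKM in the control pools, against 128.8 and 140.4 with the inhibitor. Lyn made up 27.7% and 38.0% of that sum in the control pools, against 36.6% and 35.3% with the inhibitor, so its share overlapped between the groups. The share of Fyn was 27.9% and 27.5% in the controls and lower in both inhibitor libraries, at 23.9% and 22.8%.

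Genes that act with these kinases were followed in 4 lists. Src family substrates on receptors carry activating motifs (ITAMs, which recruit Syk family kinases) or inhibitory motifs (ITIMs, which recruit phosphatases). Of 20 tested ITIM receptors, 8 rose and 0 fell, beside 3.22% higher and 0.267% lower over all genes, with a median log2 fold change of 0.72 against 0.07. Lilrb4a rose from 32.4 and 39.0 FPKM to 100.4 and 116.7 FPKM, or by 1.58 on the log2 scale (limma, adjusted p = 0.00958). Pirb, a myeloid receptor whose inhibitory motifs Lyn is known to phosphorylate, rose from 46.3 and 49.6 to 84.9 and 91.6 FPKM, or by 0.87 on the log2 scale (adjusted p = 0.0145). Sirpa, the receptor for the signal of CD47 on macrophages, rose from 72.9 and 77.9 to 123.9 and 133.0 FPKM, and Cd72 rose by 1.18 on the log2 scale. The 12 others included Cd22, a target of Lyn on B cells, with 30.1 FPKM in control 1 and 1.74 in control 2, against 10.5 and 16.2 with the inhibitor (adjusted p = 0.804). The count of 8 was 2 with no filter and 4 with no variance trend.

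Of 13 tested ITAM receptors and adaptors, 3 rose and 0 fell, beside 3.22% and 0.267% of all genes, and the median log2 fold change was 0.93 against 0.07. The list also counts Hcst, an adaptor without an ITAM, which was not called (limma, adjusted p = 0.129). The 3 were the IgG receptors Fcgr1 and Fcgr4, which were at 32.6 and 55.6 against 140.0 and 183.4 FPKM and at 21.1 and 37.2 against 89.5 and 102.1 FPKM, and their signalling subunit Fcer1g. Fcer1g had 218.2 and 264.1 FPKM in the control pools, against 387.1 and 457.2 FPKM with the inhibitor, a log2 fold change of 0.81 (limma, adjusted p = 0.0466). Fcgr3, another IgG receptor on the list, did not rise, at 75.3 and 73.4 against 68.1 and 75.7 FPKM (limma, adjusted p = 0.813). Tyrobp, the other myeloid ITAM adaptor, was not called, at 0.56 on the log2 scale (adjusted p = 0.0915). Fcgr1 is also on the macrophage list, and the T and B cell members of the ITAM list shared the low values of control 2. Among these was Cd3d, whose log2 fold change is the list median. It had 6.79 and 1.33 FPKM in the control pools, against 5.83 and 8.68 FPKM with the inhibitor, which overlapped. The 3 calls were 1 with upper quartile scaling and 0 with no filter or no variance trend.

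Of 28 tested kinases and adaptors downstream of Src family enzymes, 4 rose and 0 fell, where 3.22% and 0.267% of all genes did, and the median log2 fold change was 0.54 against 0.07 over all genes. Pik3ap1, an adaptor that links receptors to phosphoinositide 3-kinase, rose from 20.4 and 21.1 to 51.7 and 56.3 FPKM, or by 1.34 on the log2 scale (limma, adjusted p = 0.00812). Vav1, an exchange factor of Rac, rose from 14.9 and 13.1 to 27.4 and 31.1 FPKM, the adaptor Lcp2 rose from 14.1 and 14.3 to 25.2 and 29.6 FPKM, and Skap2 rose by 0.58 on the log2 scale. Syk, the kinase that binds phosphorylated ITAMs, had 25.2 and 21.3 FPKM in the control pools, against 25.8 and 27.6 FPKM with the inhibitor (adjusted p = 0.438). The count of 4 was 1 with no filter and 2 with no variance trend.

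Of 20 tested phosphatases and other regulators, 1 rose and 0 fell, a share near the 3.22% and 0.267% of all genes, with a median log2 fold change of 0.47 against 0.07 over all genes. Ptprc, which encodes the phosphatase CD45 that opens Src family kinases and is present on all leukocytes, rose from 58.1 and 43.0 to 98.5 and 111.7 FPKM, or by 1.05 on the log2 scale (limma, adjusted p = 0.0372). Ptpn6, which encodes SHP-1, the phosphatase recruited by ITIMs, had 55.3 and 39.2 FPKM in the control pools, against 71.5 and 77.4 FPKM with the inhibitor (adjusted p = 0.128). Ptprc was not called with the replicate number as a block, with no filter or with no variance trend. In each of the 4 lists the genes at an unadjusted p under 0.05 in limma were all higher. They were 9 of the 20 regulators, 6 of the 13 genes of the ITAM list (Hcst among them), 12 of the 20 ITIM genes and 12 of the 28 downstream genes. Over all tested genes 13.4% were higher and 5.95% lower at that threshold. The lists hold many leukocyte genes, and the part of leukocyte number in their levels was not tested.

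**Figure D5:**
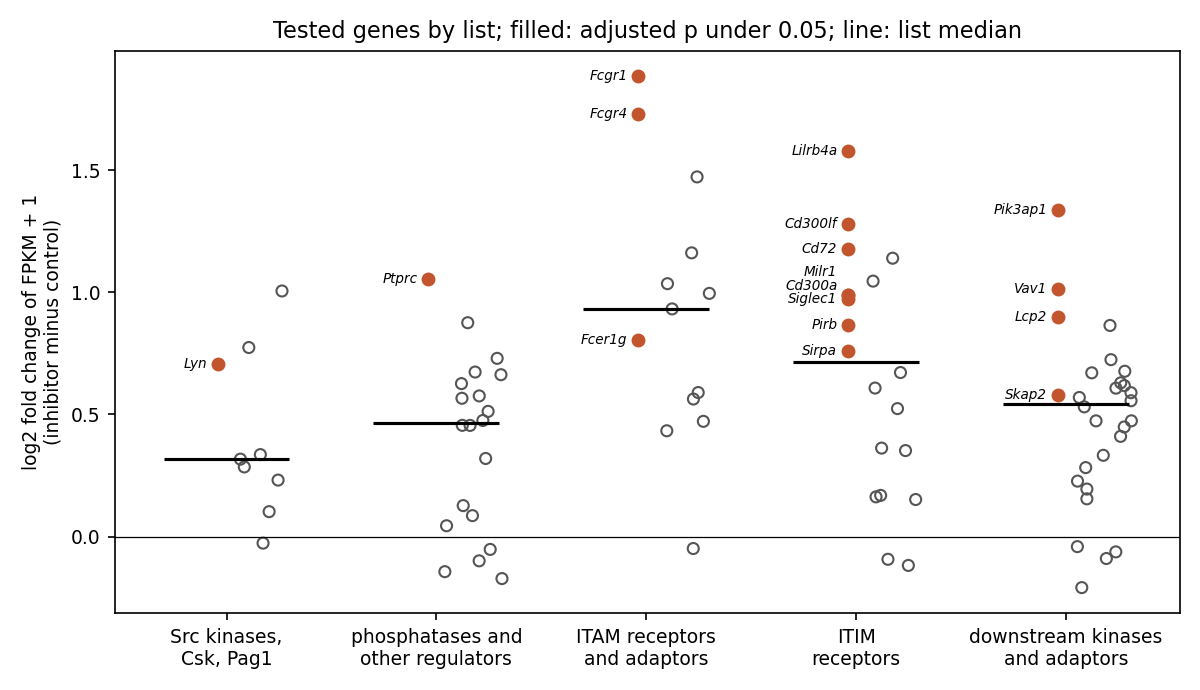
Log2 fold change of FPKM + 1, inhibitor minus control, of the tested genes in the member group and the 4 lists; each point is a gene, filled points have an adjusted p under 0.05 and carry the gene symbol, and black lines are list medians. The medians run from 0.32 for the members to 0.93 for ITAM receptors and adaptors, where it is the value of Cd3d, a T cell gene low in control 2.

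Rows with the library pattern most like that of a member were named by the Euclidean distance between log2(FPKM + 1) values centred on their mean over the 4 libraries. For Lyn the 5 nearest of the tested rows were Efhd2, C5ar1, Klf6, Clic1 and Itgb2, at distances of 0.046 to 0.051, and 32 rows lay within 0.1. C5ar1, the receptor for the complement fragment C5a, had 27.7 and 28.2 FPKM in the control pools, against 45.2 and 48.8 FPKM with the inhibitor, close to Lyn in level as well. For Fgr the nearest rows included Klra7, Lcp1, Dusp5 and H3f3b, at 0.049 to 0.078. For Lck the nearest rows included Il7r, Parvg, Ctsw and Gimap5, at 0.135 to 0.205. For Blk the nearest were Pou2af1, H2-Ob, Fcrla, Bank1 and Btla, at 0.39 to 0.56, so no tested row lay as near to Blk as those nearest to Lyn did. The values were not scaled to equal spread, so distances tend to be larger for a gene of wide spread. Blk ran from 0.197 to 8.68 FPKM. With 4 libraries such likeness is easily reached by many rows and carries no test.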

How the data were processed

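RNA of 3 animals per pool was sequenced from subcutaneous white fat, 2 pools a group, with a directional kit per the labels' protocols. The authors' deposited table holds gene-level FPKM from Cufflinks per the file headers. The submitters' processing notes name TopHat, TopHat2 2.0.11, Cufflinks 2.1.1 and mm10, which is GRCm38; of settings, annotation and strand use, nothing is given in the sources used here. Read counts cannot be had from these values, and the depth is unknown. The modal ratio of low values put the depths of control 2, inhibitor 1 and inhibitor 2 at 1.06, 0.928 and 0.903 times that of control 1.

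Libraries were grouped by title. Rows whose mean reached 1 FPKM were compared as log2(FPKM + 1) with limma 3.58.1 in R 4.3.3 (eBayes with a trend, 5.29 degrees of freedom). The fit was tested on simulated data with changes larger than those of Lyn and Fgr. The simulated spread depended on level alone, with no spread particular to a gene and no library like control 2. It therefore cannot show how the fit does where these occur, as for Lck and Blk. Changes of their size were not simulated. P-values set the difference between the groups against the spread between pools, which the fit partly shares across genes. Of the 5.29 degrees of freedom, 2 come from the libraries of the gene itself. The members, lists and tests were chosen with earlier results of these data known. Every member is named. So are up to 4 called genes a list with the smallest p, fixed partners (Syk, Ptprc, Ptpn6, Fcer1g, Tyrobp, Cd79a) and the 5 nearest rows of Lyn, Fgr, Lck and Blk, of which some, with another gene, are not reported here. Adipoq, Cd22, Cd3d, Fcgr3, Hcst and the macrophage, neutrophil and lymph node stroma markers, Ccl21a among them, were named after their values were seen. Coordinates and 3′ regions come from GENCODE M21 (GRCm38). The labels do not say that equal replicate numbers share anything, and their deviations from the group means correlated at -0.00581 across genes.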

Additional observations from a re-analysis of the deposited data

How the results depend on the processing

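Lyn was higher in the inhibitor libraries under all 12 alternatives, and Fgr, Lck, Fyn, Src and Csk likewise. Blk turned to -0.077 with quantile normalization and ran from -1.41 to 1.61 when a library was left out, Pag1 ran from -0.039 to 0.50 and Yes1 from -0.074 to 0.019. Leaving out a library gave 0 to 687 genes called higher over all genes and 0 to 98 lower, 0 to 4 members higher and 0 to 1 lower, 0 to 6 regulators, 0 to 10 ITAM genes higher and 0 to 2 lower, 0 to 12 ITIM genes and 0 to 12 downstream genes. Calls were 0 over all genes when either inhibitor library was left out, where the spread comes from the controls alone and 1693 and 1281 genes had an unadjusted p under 0.05 in limma. With no filter the calls were 122 higher and 10 lower over all genes, 0 members, 0 regulators, 0 ITAM, 2 ITIM and 1 downstream. With no variance trend they were 215 and 11, 0 members, 0 regulators, 0 ITAM, 4 ITIM and 2 downstream. With a mean of at least 5 FPKM they were 439 and 66, with 2 members and 2 regulators, and Blk, Yes1 and Pag1 were not tested. Upper quartile scaling gave 267 and 64 with 1 ITAM gene, quantile normalization 326 and 92, and equal totals without mitochondrial genes 332 and 54. The share of calls that were higher was 92.3% as deposited, 80.7% with upper quartile scaling and 78.0% with quantile normalization. Upper quartile scaling moved the median log2 fold change of all genes from 0.07 to -0.04. The replicate block, whose numbers are not known to pair the libraries, gave 333 and 21 over all genes, kept the count of 1 member, and gave 0 regulators. The cause of these differences between settings was not tested. With 2 pools a group, differences of the size seen for Fyn, Src and Csk could not be told from the spread between pools.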
